A study of Mus musculus with 18 samples.

Results

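E+F- cells, which carry endoglin (E, encoded by Eng) but not Flk-1 (F, encoded by Kdr) on their surface when sorted, were compared after culture with IWR-1 or with its solvent DMSO. The comparison took the 6 E+F- libraries of the 18 in the series, 3 with IWR-1 and 3 with DMSO, and paired them by the Set number (Set 1 to Set 3) in their labels. The cells came from GFP-Bry embryonic stem (ES) cells of the mouse, in which green fluorescent protein sits in the Brachyury locus. They had been grown into embryoid bodies, sorted as GFP-positive cells on day 3, and then reaggregated for 24 h with 10 µM IWR-1 or with DMSO before RNA was collected. The other 12 libraries are E+F+ cells and unsorted cells under the same pair of treatments, and serve below only to show where the response of E+F- cells differs. All 6 groups share the ES cell line, which is a single line, and the labels do not say whether the Sets were separate cultures, so the p-values measure the spread between these libraries, which the study describes as independent biological samples.

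IWR-1 is a small molecule that stabilises Axin by blocking tankyrases. Axin is the scaffold of the complex that marks β-catenin for destruction, and β-catenin is the partner through which TCF and LEF factors switch on the target genes of canonical Wnt signalling. In the gastrulating mouse embryo, Wnt ligands act with bone morphogenetic proteins (BMPs) and Nodal in the primitive streak, where they induce mesoderm and give it posterior identity, and the same signal later holds back the differentiation of heart cells. The question put to these libraries was which transcripts of the E+F- population, described by the study as the fraction with cardiac potential, depend on canonical Wnt signalling.

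The expected counts of the 6 libraries summed to between 19725500 and 26478754. In a principal component analysis, the first component (49.4% of the variance) set the Set 3 libraries, at -61.3 with IWR-1 and -36.2 with DMSO, apart from the other 4, at 16.2 to 33.3. The second component (29.5%) placed the IWR-1 libraries at 13.4 to 36.0 and the DMSO libraries at -36.3 to -12.6. Brachyury (T), the reporter gene of the sort, stood at 160 to 298 TPM (transcript levels corrected for length and scaled to each library's total) with IWR-1 and at 218 to 494 TPM with DMSO. The label was less plain for both Flk-1 and endoglin 24 h after the sort. Kdr, whose protein was sorted as absent, stood at 85.3, 105 and 29.1 TPM in IWR-1 Sets 1 to 3. In DMSO it stood at 25.2, 75.3 and 37.6 TPM, so its transcript was present in every library. Eng, whose protein was sorted as present, was at 4.29 to 7.09 TPM with IWR-1 and 2.58 to 7.07 TPM with DMSO. It was below Kdr in every library. The sort read surface protein, and these are transcript levels. Markers of other cells also marked Set 3. The embryonic globin Hbb-bh1 was at 1.5, 9.83 and 338 TPM with IWR-1 and at 1.3, 5.71 and 86.8 TPM with DMSO, in the order Set 1, 2, 3. The summed level of 5 blood markers was 4.92, 16.2 and 569 TPM with IWR-1 and 3.55, 11.2 and 158 TPM with DMSO. That of 5 markers of undifferentiated ES cells, most of it Pou5f1, was 339, 299 and 977 TPM with IWR-1 and 83.3, 215 and 378 TPM with DMSO. Of 5 endoderm markers and 3 neuroectoderm markers, the sums did not pass 4.36 and 6.76 TPM with IWR-1 or 1.90 and 2.23 TPM with DMSO, and Afp, Ttr, Sox1 and Pax6 were at or near 0 throughout. Of the other markers in these lists, Foxa2 was at 1.28 to 3.39 TPM with IWR-1 and 0.09 to 0.6 TPM with DMSO, Cer1 at 0.36 to 0.64 TPM with IWR-1 and 0 with DMSO, Sox3 at 1.1 to 6.7 TPM with IWR-1 and 0.46 to 2.23 TPM with DMSO, and Sox17 at 0.57 to 0.83 TPM with IWR-1 and 0.46 to 1.3 TPM with DMSO. In bulk RNA, fewer cells of a type and less RNA per cell cannot be told apart.

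The filter on low counts kept 13104 of the 20321 rows deposited. Of these 13104 genes tested with edgeR, with Set as a block, 259 (1.98%) passed an adjusted p of 0.05: 117 (0.893%) were higher with IWR-1 and 142 (1.08%) were lower. All 117 and all 142 lay on the same side in each of the 3 Sets, which selection by a test paired on those Sets favours. At least 2-fold differences were seen for 86 of the higher and 104 of the lower genes. The 3 IWR-1 and 3 DMSO values, as CPM (counts scaled by library size), did not overlap for 93 of the 117 and 120 of the 142, against 5.69% and 6.58% of all tested genes that were separated upwards and downwards. The block carried much of this count: without it 31 genes passed, 3 higher and 28 lower. Without Set 3 there were 553 calls (4.22%; 315 higher; 238, or 1.82%, lower), which included 252 of the 259, while 116 passed without Set 1 (41 higher, 75 lower), 98 of them among the 259, and 150 without Set 2 (72 higher, 78 lower), 119 of them among the 259. The split between directions also depended on the scale: on log2(TPM + 1), 51 genes were higher and 156 lower. At an unadjusted p under 0.05, edgeR had 1841 of the 13104 genes, both directions together, and DESeq2 called 592 at its adjusted p. These totals are the background for the list counts given below at the same thresholds.

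**Figure D1:**
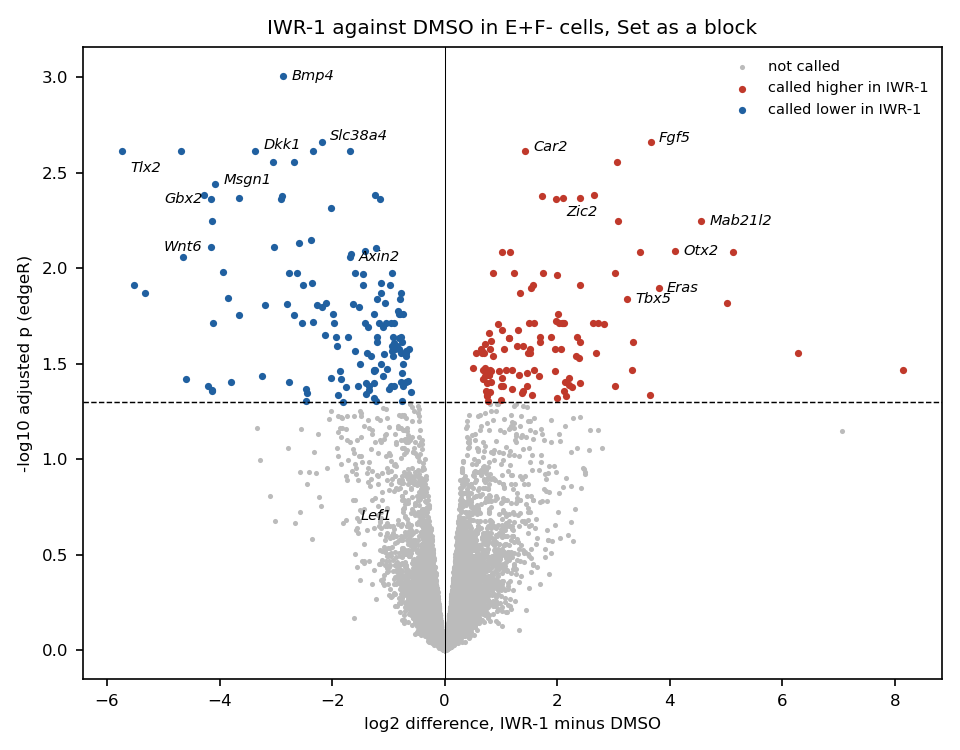
Each point is 1 of 13104 tested genes in E+F- cells, with the log2 difference between IWR-1 and DMSO on the x axis and -log10 of edgeR's adjusted p on the y axis. The dashed line marks an adjusted p of 0.05, above which lie 117 genes higher (red) and 142 lower (blue) with IWR-1; Bmp4 has the smallest adjusted p, 0.00098, and the point farthest right is Pilrb2, which was at 0 in all DMSO libraries.

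Some canonical Wnt feedback genes were lower with IWR-1. Of 22 tested members of a list of Wnt feedback and target genes, 11 fell, none rose, and the list's median log2 difference was -0.91, beside 0.0032 over all tested genes. At an unadjusted p under 0.05, edgeR had 18 of the list lower and 1 higher, while DESeq2 called 15 lower and limma-voom 11 lower, and neither called one higher. Axin2, a paralogue of Axin that is itself switched on by β-catenin, stood at 16.4, 22.4 and 21.2 TPM with IWR-1 and at 66.8, 57.9 and 80.0 TPM with DMSO. The groups were far apart in each Set, and the log2 difference was -1.68 ± 0.16 (SE, n = 3 pairs; edgeR adjusted p = 0.00877). Dkk1, a secreted inhibitor that blocks the Wnt co-receptor LRP, was at 4, 5.4 and 5.6 TPM with IWR-1 against 56.2, 45.6 and 63.2 TPM with DMSO. Its log2 difference of -3.37 ± 0.18 (adjusted p = 0.00243) was the largest of the feedback inhibitors in the list. Nkd1, which restrains Dishevelled, was at 9.63, 11.7 and 3.55 TPM with IWR-1 and at 71.0, 67.4 and 43.1 TPM with DMSO, and the Wnt deacylase Notum was at 1.61, 1.96 and 3.06 TPM against 14.3, 11.01 and 16.6 TPM. Their log2 differences were -2.89 ± 0.21 and -2.59 ± 0.22 (adjusted p = 0.00417 and 0.00734), and no IWR-1 library reached the lowest DMSO library.

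Tnfrsf19 (log2 difference -3.05, adjusted p = 0.00278), Lgr5, the R-spondin receptor of stem cells (-2.37, 0.0071), the BMP pseudoreceptor Bambi (-1.26, 0.0172), the Wnt inhibitor Apcdd1 (-1.05, 0.0193) and the growth regulator Myc (-0.78, 0.0173) also fell. The caudal homeobox genes Cdx1 and Cdx4 complete the 11 and are described with the Hox genes. Other members of the list did not pass. Lef1 stood at 51.7, 57.3 and 28.5 TPM with IWR-1 and at 74.8, 74.9 and 75.5 TPM with DMSO; the groups did not overlap, but the spread among the IWR-1 libraries left the log2 difference at -0.70 ± 0.19 (adjusted p = 0.171). Sp5 was at 66.6, 93.8 and 34.0 TPM with IWR-1 and 85.8, 65.1 and 102 TPM with DMSO, with overlapping groups (adjusted p = 0.689), and Tcf7 and Ccnd1 had adjusted p of 0.0831 and 0.081. Leaving out Set 2 ended the calls of Apcdd1 (adjusted p = 0.0557) and Myc (0.0765), and without the block 4 of the 11 were called, namely Axin2, Dkk1, Notum and Tnfrsf19.

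**Figure D2:**
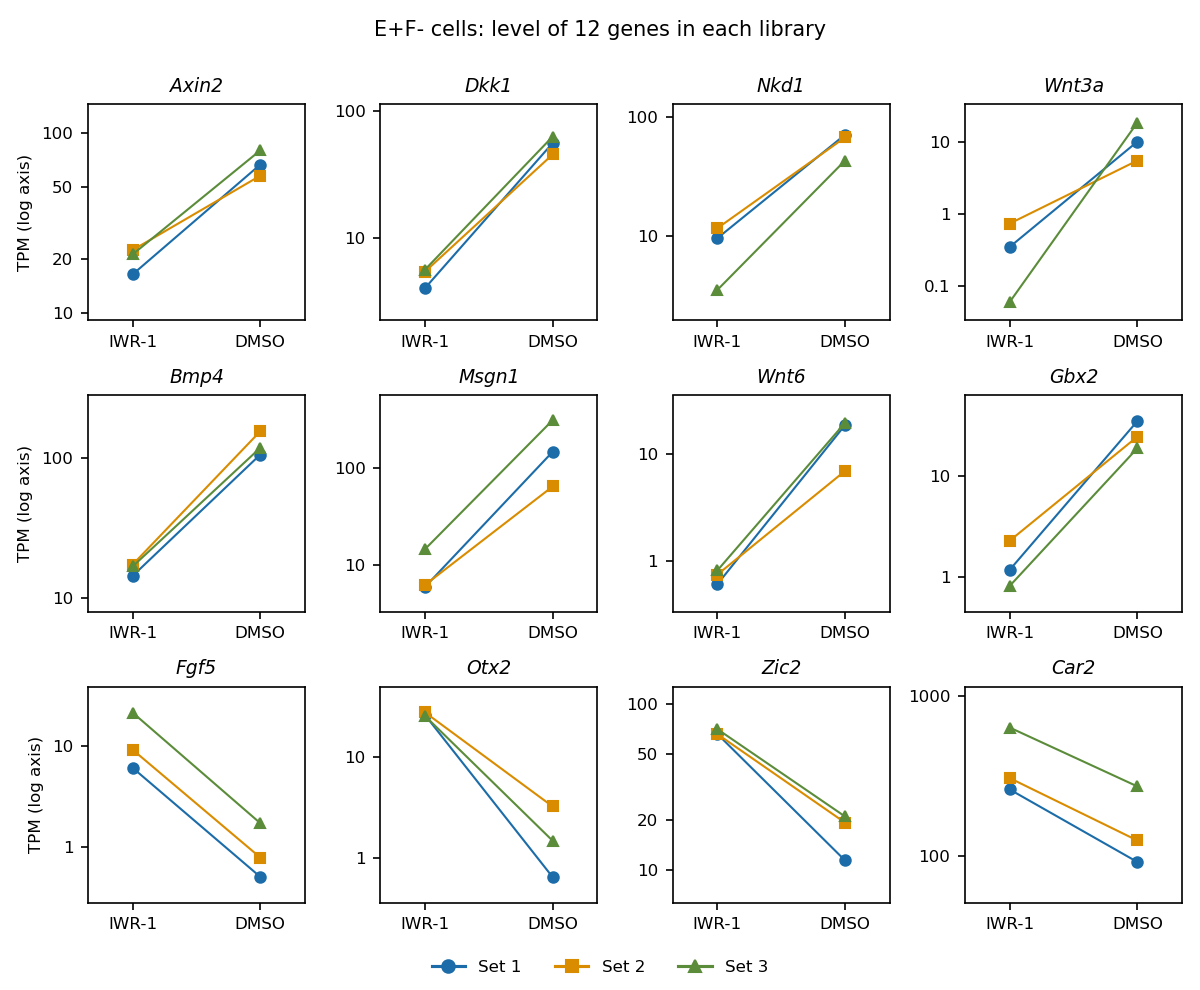
TPM on a log axis for 12 genes in the 6 E+F- libraries, with IWR-1 at the left and DMSO at the right of each panel and a line joining the libraries of a Set. In the upper 8 panels all 3 lines run upwards to DMSO, as for Dkk1 (4 to 5.6 TPM with IWR-1 and 45.6 to 63.2 TPM with DMSO), and in the lower 4 all 3 run downwards, as for Fgf5.

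The components that IWR-1 acts on showed little difference at the transcript level. Among 16 tankyrase and destruction complex genes, Axin2 was the only one called, and the median log2 difference was 0.03. The 2 tankyrases stood at 33.2, 30.6 and 33.6 TPM (Tnks) and 161, 131 and 136 TPM (Tnks2) with IWR-1, and at 26.8, 32.98 and 38.3 TPM and 119, 125 and 136 TPM with DMSO (adjusted p = 0.721 and 0.283). β-catenin (Ctnnb1) was at 492 to 523 TPM with IWR-1 and at 471 to 495 TPM with DMSO (adjusted p = 0.399). Of 14 TCF/LEF factors and cofactors edgeR called 1 higher, and DESeq2 called 2 higher and 3 lower, among them Lef1 and Tcf7. The gene called by edgeR was Tcf7l1, known as a repressor of Wnt targets in ES cells, which was at 44.1, 49.7 and 47.4 TPM with IWR-1 and at 25.0, 31.3 and 36.2 TPM with DMSO (log2 difference 0.72 ± 0.11, adjusted p = 0.0333). That call was lost without Set 1 (adjusted p = 0.0713) and without Set 2 (0.137).

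Wnt ligands themselves were among the genes with the largest differences. Of 30 tested ligands, receptors and secreted inhibitors, 7 were lower and 1 was higher, against 8 lower and 5 higher without Set 3, and 10 lower and 6 higher at an unadjusted p under 0.05. Wnt3a, a ligand of the posterior streak, was at 0.35, 0.74 and 0.06 TPM with IWR-1 and at 10.2, 5.56 and 18.7 TPM with DMSO (log2 difference -4.59 ± 0.72, adjusted p = 0.0378). All IWR-1 libraries were below 1 TPM, and the size of the difference moved with the Set left out, to -5.92 without Set 2 and -3.72 without Set 3, while without Set 1 the adjusted p was 0.112. Wnt6 was at 0.61, 0.75 and 0.82 TPM with IWR-1 and at 18.6, 6.95 and 19.5 TPM with DMSO (-4.16 ± 0.37, adjusted p = 0.00775). Wnt5b (-2.62, adjusted p = 0.0106) and Wnt5a (-1.14, adjusted p = 0.0119), ligands best known for signalling without β-catenin, were lower too. The receptors Fzd4 and Fzd10 fell by 1.59 and 1.75 on the log2 scale (adjusted p = 0.0272 and 0.042), and both calls were lost without Set 2 (adjusted p = 0.103 and 0.0719), that of Fzd4 also without Set 1 (0.0883). The secreted Wnt antagonist Sfrp1 was the gene of this list that rose, to 5.16, 3.16 and 3.92 TPM with IWR-1 against 0.92, 0.70 and 1.52 TPM with DMSO (2.08 ± 0.26, adjusted p = 0.0193; 0.0648 without Set 1 and 0.0623 without Set 2).

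TCF and LEF factors bind a short motif, searched here as CTTTGA and, on the other strand, TCAAAG, in the 250 bases before each RefSeq transcription start of the mouse (GRCm38.p6). A start window was found for 96 of the 142 lower genes, of which 20 (20.8%) held the motif in at least 1 window, for 84 of the 117 higher genes, of which 10 (11.9%) did, and for 9877 of all 13104 tested genes, of which 1239 (12.5%) did. Within the Wnt feedback and target list, the motif was held by 2 of the 5 called members with a window (40%). Of all 13 tested members with a window, 6 (46.2%) held it, so called members did not hold it more often. The matches in 3 of the genes described here are shown, with the motif in capitals and 12 bases on either side, because Dkk1 and Tnfrsf19 are called members of the Wnt list and Msgn1 is the paraxial mesoderm gene with the largest fall.
Dkk1: gaggggagagtgTCAAAGtcctccctgctt
Dkk1: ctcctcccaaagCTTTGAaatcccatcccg
Tnfrsf19: ctgaatgggggaTCAAAGtgacaaactaga
Msgn1: agatgctaattaTCAAAGaggggaaagtga
Msgn1: ccttggttcttcCTTTGAactccctccacc
All 5 are written 5′ to 3′ along the gene, which lies on the minus strand in each case. The Dkk1 stretches are at chr19:30549653-30549682 and chr19:30549596-30549625, and their matches begin 174 and 117 bases before the RefSeq start. That of Tnfrsf19 is at chr14:61038171-61038200 (201 bases before one of its starts), and those of Msgn1 are at chr12:11209133-11209162 and chr12:11209074-11209103 (202 and 143 bases). The windows of Axin2, Cdx4, Nkd1, Bmp4, Gbx2, Fgf5 and Otx2 held neither motif. A match is a description of the letters and not of a bound site.

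Genes of posterior identity were lower with IWR-1. Hox genes pattern the head-to-tail axis. Of 38 with deposited values, 17 passed the filter on low counts. Of these 5 fell, none rose, all 17 had a negative log2 difference, and the median was -2.33. A gene could pass that filter through its DMSO libraries alone, so the shared sign is not separate support. Among genes dropped, Hoxa10 and Hoxd11 were at 3.3 and 3.09 TPM with IWR-1 in Set 3, against 2.4 and 1.88 TPM with DMSO. There Hoxa7 and Hoxc8 were at 2.58 and 4.39 TPM against 8.45 and 6.11 TPM. At an unadjusted p under 0.05, edgeR had 16 lower and 0 higher, and DESeq2 called 13 lower and 0 higher. Hoxa3 (-3.65, adjusted p = 0.0176), Hoxa2 (-3.80, 0.0392), Hoxa5 (-4.13, 0.0441) and Hoxd1 (-2.53, 0.0193) were among the 5, although none of these 4 passed without Set 1 (adjusted p = 0.0509 to 0.0792). Hoxa2, Hoxa5 and Hoxd1 did not pass without Set 2 either, the sizes without Set 1 were -3.09 for Hoxa2 and -3.33 for Hoxa5, and those without Set 3 were -4.68 for Hoxa2, -4.43 for Hoxa3 and -6.18 for Hoxa5. Hoxb1 was at 24.3, 44.7 and 1.93 TPM with IWR-1 and at 116, 110 and 40.1 TPM with DMSO, lower in each Set but at a different level in Set 3 (-2.33 ± 0.50, adjusted p = 0.0911), and without Set 3 it passed (5.42e-05), among 14 of 17 tested Hox genes that were then called lower. Hoxb1 was named after its values were seen, as were Fzd4 and Fzd10 above.

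The regulators upstream of Hox genes followed. Cdx1 was at 0.08, 0.08 and 0.61 TPM with IWR-1 and at 5.06, 4.10 and 9.29 TPM with DMSO (-4.66 ± 0.44, adjusted p = 0.00877; -5.63 without Set 3). Cdx4 was at 0, 0.03 and 0.14 TPM with IWR-1 and at 0.78, 1.30 and 1.09 TPM with DMSO (adjusted p = 0.0433, lost without Set 1 at 0.0899 and without Set 2 at 0.151). Cdx2, the most abundant of the 3, did not pass (adjusted p = 0.087), with 2.53, 5.68 and 36.6 TPM with IWR-1 and 62.9, 46.1 and 94.4 TPM with DMSO. Every IWR-1 value lay below every DMSO value for each of the 3, but the IWR-1 library of Set 3 was the highest of its group. Gbx2, a homeobox gene that sets the border of the hindbrain, was at 1.17, 2.28 and 0.81 TPM with IWR-1 and at 35.3, 24.7 and 18.96 TPM with DMSO (-4.16 ± 0.32, adjusted p = 0.0043). Of the 11 regulators tested, 3 were lower and none higher (at an unadjusted p under 0.05, 5 lower and 1 higher in edgeR; 4 lower by DESeq2).

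**Figure D3:**
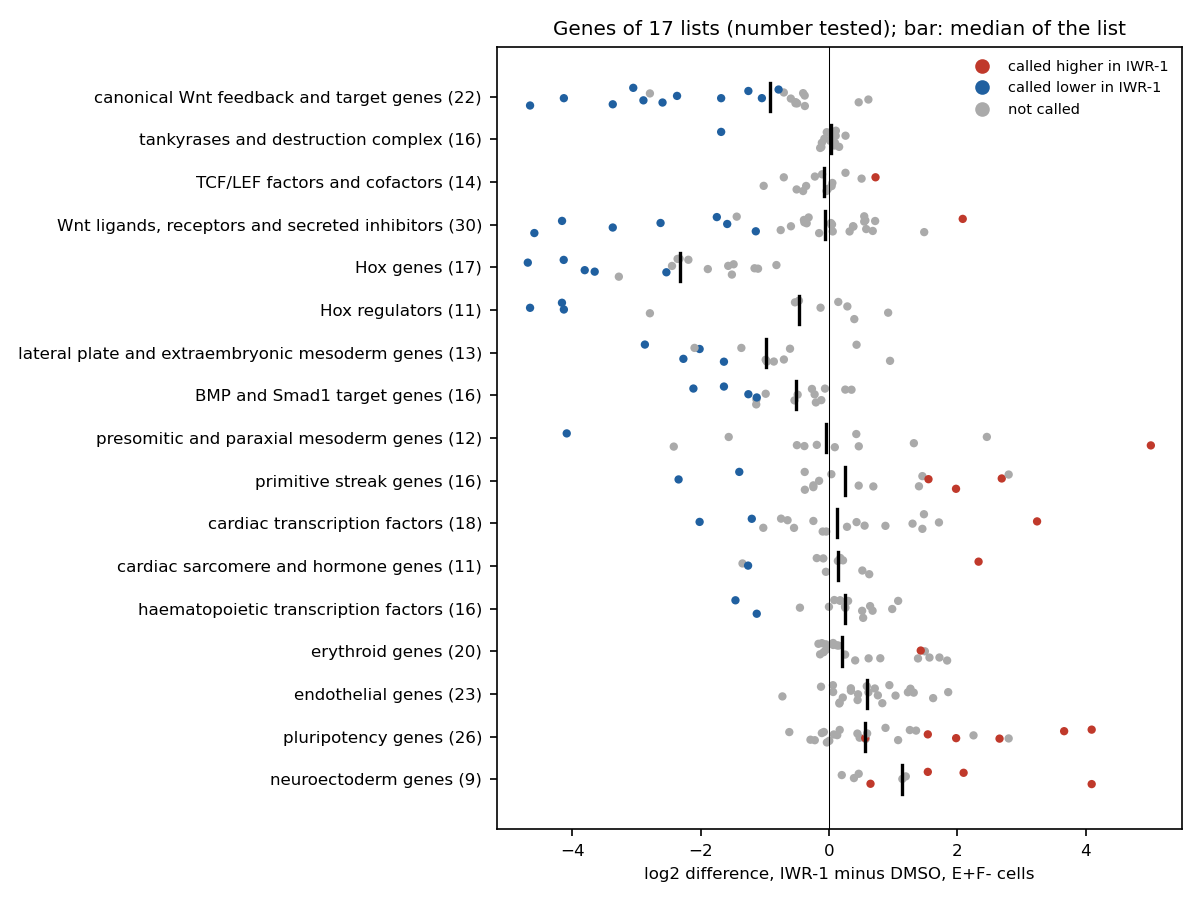
Log2 difference between IWR-1 and DMSO in E+F- cells for the tested genes of 17 lists (number tested in brackets); red and blue points are called higher and lower with IWR-1, grey points are not called, and the black bar is the median of the list. All 17 Hox genes lie left of 0 and all 9 neuroectoderm genes right of it, while the tankyrase and destruction complex genes, other than Axin2, lie close to 0.

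Mesodermal genes divided. Msgn1, which drives streak cells into presomitic mesoderm, was at 5.97, 6.26 and 14.7 TPM with IWR-1 and at 149, 65.2 and 316 TPM with DMSO (-4.08 ± 0.27, adjusted p = 0.00363). The highest IWR-1 library was below the lowest DMSO library by more than the range of the IWR-1 group. Of 12 tested presomitic and paraxial mesoderm genes, Msgn1 was the 1 called lower and Pax3, at low levels given below, the 1 called higher. The median of that list was -0.05, with 6 negative and 6 positive log2 differences. At an unadjusted p under 0.05, edgeR had 4 of the list lower and 3 higher. Among 16 primitive streak genes, Mixl1 (12.0, 26.4 and 29.2 TPM with IWR-1, 103, 83.0 and 172 TPM with DMSO; -2.34, adjusted p = 0.019) and Evx1 (-1.40, 0.0454; 0.143 without Set 1) fell. Foxa2, a gene of the anterior streak and of endoderm (2.69, adjusted p = 0.0278), Lhx1, a gene of the same region (1.55, 0.0459), and the epiblast factor Pou3f1 (1.98, 0.0187) rose. Lhx1 was at 116, 154 and 55.8 TPM with IWR-1 and at 31.7, 41.0 and 37.5 TPM with DMSO, and its call, like that of Foxa2, was lost without Set 1 (adjusted p = 0.145 and 0.0621) and without Set 2 (0.115 and 0.0681). The call of Pou3f1 was lost without Set 1 (adjusted p = 0.0551). Eomes, which acts with Nodal in the streak and was chosen after its values were seen, missed the threshold (adjusted p = 0.0523), with 156, 254 and 120 TPM with IWR-1 and 46.4, 78.7 and 86.4 TPM with DMSO. T, a direct target of Wnt, overlapped between the groups (-0.38 ± 0.11, adjusted p = 0.207).

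Bmp4 had the smallest adjusted p of all genes. This ligand, which ventralises mesoderm and is needed for blood and for lateral plate, was at 14.4, 17.3 and 16.8 TPM with IWR-1 and at 106, 156 and 118 TPM with DMSO, a log2 difference of -2.87 ± 0.10 (adjusted p = 0.00098). The 3 IWR-1 libraries lay close together, far below the lowest DMSO library. Bmp5 was lower too, at 6.50, 9.74 and 2.89 TPM with IWR-1 against 16.9, 21.5 and 5.74 TPM with DMSO (-1.09, adjusted p = 0.0204), with groups that overlap because Set 3 was low in both. The antagonist chordin (Chrd) rose to 4.57, 2.34 and 6.68 TPM with IWR-1, against 1.11, 1.06 and 2.16 TPM with DMSO (1.69, adjusted p = 0.0243). Without Set 1 neither Bmp5 (adjusted p = 0.0551) nor Chrd (0.0713) passed, and Bmp5 did not without Set 2 (0.0656).

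Genes downstream of BMP were lower in part. Of 16 BMP and Smad1 target genes 4 fell and none rose (median -0.51; 8 lower and 0 higher at an unadjusted p under 0.05 in edgeR, 5 lower by DESeq2), namely Gata3 (-2.11, adjusted p = 0.0151), Msx2 (-1.64, 0.0153), Bambi and Gata2. Id1 and Id3, inhibitors of differentiation that respond directly to BMP, did not pass: Id1 was at 405, 404 and 396 TPM with IWR-1 and 534, 325 and 574 TPM with DMSO (adjusted p = 0.807), and Id3 at 247, 203 and 170 TPM against 416, 243 and 279 TPM (0.155). Of 13 lateral plate and extraembryonic mesoderm genes, Bmp4, Hand1, Msx2 and Foxf1 fell, none rose, and the median was -0.99 (10 lower and 1 higher at an unadjusted p under 0.05 in edgeR, 7 lower by DESeq2). Foxf1, a regulator of splanchnic mesoderm, was at 24.9, 38.2 and 4.86 TPM with IWR-1 and at 108, 138 and 47.1 TPM with DMSO (-2.27 ± 0.26, adjusted p = 0.0156). It was lower in each Set, and Set 3 was lowest in both groups. Without Set 1, Msx2, Gata3 and Foxf1 had adjusted p of 0.0531, 0.0548 and 0.0546. Tgfb2, a ligand of the same superfamily, was at 1.04, 1.45 and 5.40 TPM with IWR-1 and 12.0, 14.0 and 21.6 TPM with DMSO (-2.80, adjusted p = 0.0153).

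The cardiac genes did not move as a group. Of 18 cardiac transcription factors, 1 rose and 2 fell, against 4 higher and 3 lower with DESeq2, 6 higher and 4 lower at an unadjusted p under 0.05 in edgeR, and 5 higher and 3 lower without Set 3. Tbx5, a regulator of the first heart field, was at 2.17, 2.15 and 0.82 TPM with IWR-1 and at 0.17, 0.20 and 0.16 TPM with DMSO. It was higher in each Set and low throughout (log2 difference 3.24 ± 0.36, adjusted p = 0.0144). Isl1, a marker of second heart field progenitors, was at 7.05, 5.26 and 3.35 TPM with IWR-1 and at 16.6, 13.8 and 7.97 TPM with DMSO (-1.20 ± 0.13, adjusted p = 0.0144). Hand1 was at 52.3, 48.8 and 38.7 TPM with IWR-1 and at 165, 294 and 161 TPM with DMSO (-2.01 ± 0.16, adjusted p = 0.00484), and was the only one of these 3 factors called whichever Set was left out. Among 11 genes of the sarcomere and of heart hormones, 1 rose and 1 fell. The atrial light chain Myl7 rose to 172, 107 and 27.8 TPM with IWR-1, against 18.6, 24.4 and 12.1 TPM with DMSO (2.33 ± 0.34, adjusted p = 0.0286). Troponin C (Tnnc1) fell (-1.26, adjusted p = 0.0398). Cardiac troponin I (Tnni3), whose transcript the study measured after further culture, did not pass here. Tnni3 was at 2.06, 2.77 and 7.4 TPM with IWR-1 and at 7.14, 5.66 and 21.1 TPM with DMSO (-1.35, adjusted p = 0.0681). It was lower with IWR-1 in each Set, but the groups overlapped. Tbx5, Isl1, Myl7 and Tnnc1 were not called without Set 1 (adjusted p = 0.0603, 0.0578, 0.0553 and 0.0991) or without Set 2 (0.0623, 0.0623, 0.0826 and 0.0765), and Tnnc1 not without Set 3 (0.0501).

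Mesp1, the factor of the earliest cardiac mesoderm, was at 252, 261 and 65.1 TPM with IWR-1 and at 202, 220 and 206 TPM with DMSO. The IWR-1 library of Set 3 stood apart from the other 5, and the log2 difference of -0.24 ± 0.37 (adjusted p = 0.812) became 0.36 without that Set (adjusted p = 0.222). Gata4 (adjusted p = 0.614) and Mef2c (0.0689) did not pass with 3 Sets but did without Set 3 (0.0124 and 0.0082), and Kdr behaved likewise (0.43, and 0.00185 without Set 3). In that Set the levels of Gata4 and Kdr were lower with IWR-1, at 45.9 and 29.1 TPM, than with DMSO, at 67.3 and 37.6 TPM, while in Sets 1 and 2 they were higher. Beside these values stand the blood and ES cell marker sums of Set 3 given above; their part in the result was not tested.

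**Figure D4:**
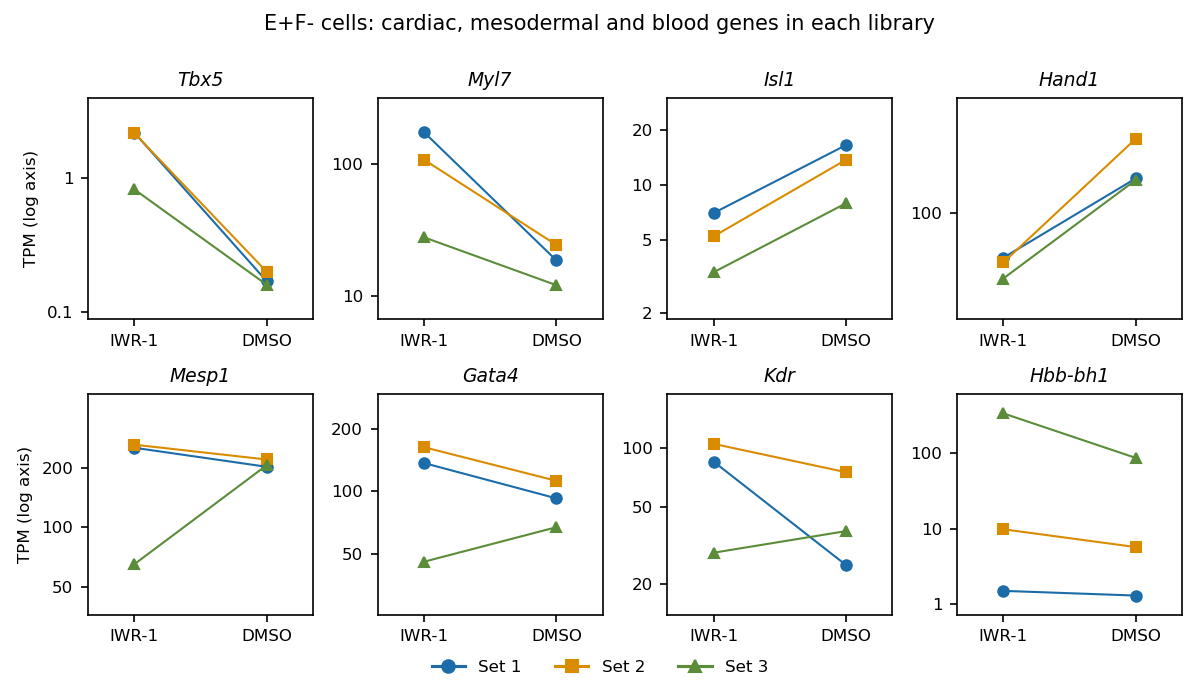
TPM on a log axis for 8 cardiac, mesodermal and blood genes in the E+F- libraries, with IWR-1 at the left and DMSO at the right of each panel and a line for each Set. Tbx5 and Myl7 are higher and Isl1 and Hand1 lower with IWR-1 in all 3 Sets, while for Mesp1, Gata4 and Kdr the line of Set 3 runs against the other 2, and Hbb-bh1 reaches 338 TPM with IWR-1 and 86.8 TPM with DMSO only in Set 3.

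Few blood genes passed. Of 16 haematopoietic transcription factors 2 fell and none rose, and the same counts came from an unadjusted p under 0.05 in edgeR and from DESeq2. Lmo2, a bridging partner of Tal1, was at 7.40, 9.12 and 9.03 TPM with IWR-1 and at 24.6, 24.6 and 26.8 TPM with DMSO (-1.46 ± 0.15, adjusted p = 0.0107). Gata2 was at 5.84, 6.33 and 6.18 TPM with IWR-1 and at 12.2, 16.8 and 13.9 TPM with DMSO (-1.13 ± 0.12, adjusted p = 0.0135; 0.0582 without Set 2). Both groups were tight in both genes and far from overlapping. Jdp2 and Epas1, AP-1 and hypoxia factors that the study followed in blood precursors, did not pass here. Jdp2 was at 4.38, 12.5 and 4.81 TPM with IWR-1 and 6.44, 13.1 and 9.46 TPM with DMSO (-0.44 ± 0.22, adjusted p = 0.449), and Epas1 at 0.22, 0.36 and 0.78 TPM against 0.61, 0.83 and 2.03 TPM (-1.24 ± 0.26, adjusted p = 0.0807). Of 20 erythroid genes edgeR called 1, while DESeq2 and limma-voom each called 3 higher and edgeR had 6 higher and 0 lower at an unadjusted p under 0.05. The called gene was the carbonic anhydrase Car2, with 259, 305 and 632 TPM with IWR-1 and 91.3, 124 and 271 TPM with DMSO (1.43 ± 0.08, adjusted p = 0.00243). None of 23 endothelial genes passed, although 21 of them had a positive log2 difference and the median was 0.59. At an unadjusted p under 0.05, edgeR had 8 higher and 1 lower, DESeq2 called 1 in each direction, and without Set 3 edgeR called 7 higher and 1 lower.

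Some genes of the epiblast rose. This is the pluripotent layer from which streak and neural plate both arise. Fgf5, a growth factor of the primed epiblast, was at 6.03, 9.09 and 21.1 TPM with IWR-1 and at 0.51, 0.79 and 1.72 TPM with DMSO (3.66 ± 0.18, adjusted p = 0.0022). Otx2, a homeobox factor of the anterior epiblast, was at 26.1, 27.7 and 25.5 TPM with IWR-1 and at 0.64, 3.22 and 1.47 TPM with DMSO (4.09 ± 0.37, adjusted p = 0.00811; 4.72 without Set 2). The IWR-1 libraries hardly differed from each other in Otx2, while Fgf5 was highest in Set 3 in both groups. Zic2, a zinc finger factor of epiblast and neural plate, was at 65.8, 65.7 and 70.4 TPM with IWR-1 and at 11.4, 19.3 and 21.0 TPM with DMSO (2.10 ± 0.15, adjusted p = 0.00426).

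Of 26 pluripotency genes 6 rose and none fell (median 0.57), and of 9 neuroectoderm genes 4 rose and none fell (median 1.14); Otx2 and Sox2 stand in both lists, Fgf5 in the first and Zic2 in the second. At an unadjusted p under 0.05, edgeR had 14 higher and 2 lower in the first and 7 higher and 0 lower in the second, and DESeq2 called 10 and 5 higher and 0 lower. Sox2 was at 4.09, 7.12 and 39.2 TPM with IWR-1 and at 1.48, 3.27 and 12.0 TPM with DMSO (1.54 ± 0.16, adjusted p = 0.0126), and the ES cell chromatin gene Utf1 at 12.9, 10.4 and 144 TPM against 2.10, 2.50 and 19.7 TPM (2.66 ± 0.19, adjusted p = 0.00414). In both genes the groups overlap, because the DMSO library of Set 3 lay above the IWR-1 libraries of Sets 1 and 2, but each Set on its own was higher with IWR-1. L1td1 (1.98, adjusted p = 0.0043), the de novo methyltransferase Dnmt3a (0.56, 0.0278) and nestin (Nes; 0.65, 0.0265) were the remaining calls. Dnmt3a, named after its values were seen, was lost without Set 1 (adjusted p = 0.0536) and without Set 2 (0.11), and Nes without Set 2 (0.0882) and without Set 3 (0.0527). Pou5f1 and Nanog, the core factors of pluripotency, were named after their values were seen, and did not pass: Pou5f1 was at 279, 254 and 827 TPM with IWR-1 and 71.1, 186 and 317 TPM with DMSO (adjusted p = 0.0594), and Nanog at 48.4, 30.1 and 78.4 TPM against 2.47, 17.03 and 21.6 TPM (0.137). Eras, the ES cell Ras protein, and the kinase Pim2 rose by 3.81 and 3.02 on the log2 scale (adjusted p = 0.0126 and 0.0106), Eras by 4.46 without Set 2. The adhesion genes Cdh1 and Epcam, which are lost when cells leave the epiblast, rose by 0.68 and 0.82 (adjusted p = 0.0342 and 0.0392; 0.0741 and 0.0977 without Set 1). Without the block their adjusted p was 0.931 and 0.899, and their groups overlapped. They were the 2 genes called higher of 17 of the epithelial-mesenchymal transition, of which 1 was lower. At an unadjusted p under 0.05 edgeR had 4 of that list higher and 4 lower. The marker sum of undifferentiated ES cells was higher with IWR-1 in every Set, but most of it was Pou5f1. Zfp42, another of its 5 genes, was at 5.85, 6.73 and 29.1 TPM with IWR-1 and at 7.85, 8.16 and 26.3 TPM with DMSO (-0.08, adjusted p = 0.865). Esrrb was at 1.11, 0.9 and 3.19 TPM against 0.34, 0.51 and 1.54 TPM (1.26, 0.0812). Whether the genes of this paragraph move with the share of undifferentiated ES cells was not tested.

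Among the genes with the largest called differences, Tlx2, a homeobox gene downstream of BMP in the streak, was at 0.20, 0.10 and 0.18 TPM with IWR-1 and at 10.8, 4.39 and 12.99 TPM with DMSO (-5.74 ± 0.31, adjusted p = 0.00243). Cldn26, the claudin-like gene that RefSeq names Tmem114, was at 0.16, 0.60 and 0.25 TPM against 20.8, 7.99 and 20.6 TPM (-5.32 ± 0.58, adjusted p = 0.0135), and its difference was -6.57 without Set 2 and -4.68 without Set 1. At the other end, Mab21l2, a gene of eye and body wall development, was at 0.82, 1.40 and 8.24 TPM with IWR-1 and at 0.03, 0.11 and 0.28 TPM with DMSO (4.55 ± 0.37, adjusted p = 0.0057). It was higher in each Set, and in both groups highest in Set 3. Irx1 (3.09, adjusted p = 0.0057), the matrix gene Col14a1 (3.06, 0.00278), the ectoenzyme Enpp3 (3.48, 0.00818), the guidance cue Slit1 (3.34, 0.0341), the tolloid-like protease Tll1 (2.83, 0.0196), Cntnap2 (2.41, 0.0122) and the acetylcholine receptor subunit Chrnb4 (2.40, 0.0398) were also among the 12 highest. Slit1, Cntnap2 and Chrnb4 were not called without Set 1 (adjusted p = 0.0572, 0.0509 and 0.0982), nor Slit1, Tll1 and Chrnb4 without Set 2 (0.0882, 0.064 and 0.117), and Slit1 was at 2.63 without Set 1 and 3.95 without Set 3. Pilrb2, Foxd3 and Pax3 were called higher from next to nothing: Pilrb2 was at 1.84, 1.39 and 1.32 TPM with IWR-1 and at 0 in all DMSO libraries, Foxd3 at 0.43, 0.66 and 6.63 TPM against 0, 0.05 and 0 TPM, and Pax3 at 1.18, 0.69 and 0.23 TPM against 0.02, 0.03 and 0 TPM. Pilrb2 and Foxd3 were chosen after their values were seen.

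Single members of other lists fell as well. The amino acid transporter Slc38a4, an imprinted gene, was at 97.1, 92.0 and 92.5 TPM with IWR-1 and at 525, 416 and 430 TPM with DMSO (-2.19 ± 0.10, adjusted p = 0.0022), and the imprinted zinc finger gene Peg3 fell by 1.22 (adjusted p = 0.00784). With Cdkn1c, these are 3 of 15 imprinted growth genes, of which none rose. At an unadjusted p under 0.05 edgeR had 7 lower and 1 higher, and DESeq2 called 6 lower and 1 higher. In the list of guidance genes, the neuropilin Nrp2 (-1.67, adjusted p = 0.00243) and the netrin receptor Unc5c (-3.18, 0.0156; -3.78 without Set 3) were lower and ephrin Efnb2 was higher (0.83, 0.0241; 0.0619 without Set 1), out of 30. In that list DESeq2 called 4 higher and 4 lower, and edgeR 9 higher and 4 lower without Set 3. Fgf15 fell (-1.26, adjusted p = 0.034; 0.117 without Set 2), and the lipoprotein Apoe rose to 918, 537 and 624 TPM with IWR-1 against 313, 373 and 328 TPM with DMSO (1.09, adjusted p = 0.0342). edgeR called none of 14 Notch pathway genes, of which 2 were higher and 2 lower at an unadjusted p under 0.05 and DESeq2 called 1 lower. None was called of 22 hypoxia genes, whose median was 0.67 with 20 of 22 positive: 4 were higher and 1 lower at an unadjusted p under 0.05, DESeq2 called 1 higher, and 3 were higher without Set 3. Of 25 cholesterol synthesis genes none was called, with 6 lower at an unadjusted p under 0.05 and 1 called by DESeq2. Beside these list counts stand 1841 of all 13104 tested genes at that unadjusted p in edgeR.

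The response of E+F- cells was then set against that of the other cells, by testing the difference between the IWR-1 effects in the fit of all 18 libraries, with a block for each Set within a population. Between E+F- and E+F+ cells, 113 of 13826 genes (0.817%) differed in their effect, 49 (0.354%) more positive and 64 (0.463%) more negative in E+F- cells. Bmp4 averaged 16.2 ± 1.6 TPM with IWR-1 and 127 ± 26 TPM with DMSO in E+F- cells, and 84.7 ± 15.2 TPM with IWR-1 and 144 ± 27 TPM with DMSO in E+F+ cells (SD, n = 3 each). The difference of effects was -2.09 ± 0.21 on the log2 scale (adjusted p = 0.005). Dkk1 averaged 5 ± 0.87 TPM with IWR-1 and 55.0 ± 8.8 TPM with DMSO in E+F- cells, and 7.04 ± 3.74 TPM and 14.7 ± 3.0 TPM in E+F+ cells, with a difference of effects of -2.20 ± 0.26 (adjusted p = 0.00759). For Dkk1 the IWR-1 levels of both populations overlapped within their SD and the DMSO levels did not, while for Bmp4 it was the other way round. Axin2, whose effect was -1.68 in E+F- and -0.67 in E+F+ cells, missed the threshold for the difference (-1.004 ± 0.26, adjusted p = 0.12), as did Jdp2 (0.63 ± 0.25, adjusted p = 0.306) and Epas1 (-0.07 ± 0.45, 0.967).

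Zfp703, a repressor in the NET family of zinc finger proteins, was at 8.32, 6.75 and 14.3 TPM with IWR-1 and at 67.1, 51.8 and 72.1 TPM with DMSO in E+F- cells (-2.67 ± 0.17, adjusted p = 0.00278). In E+F+ cells it averaged 11.6 ± 1.0 TPM with IWR-1 and 12.7 ± 1.2 TPM with DMSO, and the difference of effects was -2.53 ± 0.29 (adjusted p = 0.00759). Fbxl14, a ubiquitin ligase subunit that targets Snail proteins, showed a similar shape, with 37.9, 44.2 and 43.0 TPM with IWR-1 and 135, 99.9 and 132 TPM with DMSO in E+F- cells (-1.45, adjusted p = 0.0122), against 34.0 ± 3.0 and 31.9 ± 2.4 TPM in E+F+ cells. Pkdcc, a secreted kinase, had the smallest adjusted p for the difference from E+F+ cells. It was higher with IWR-1 in E+F- cells, at 18.6, 21.4 and 59.6 TPM against 4.85, 7.38 and 21.7 TPM with DMSO (1.72 ± 0.12, adjusted p = 0.00417), and in E+F+ cells it averaged 50.9 ± 7.5 TPM with IWR-1 and 67.1 ± 9.2 TPM with DMSO.

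Against unsorted cells, 21 of 13826 genes (0.152%) differed in their effect, 8 (0.0579%) more positive and 13 (0.094%) more negative in E+F- cells, among them Bmp4 and Dkk1 again, whose effects in unsorted cells were -1.44 and -1.52. Unsorted cells are the unfractionated population, which includes E+F- and E+F+ cells. The count of 21 is therefore not a like comparison with the 113 against E+F+ cells. Lmo2 averaged 8.52 ± 0.97 TPM with IWR-1 and 25.3 ± 1.3 TPM with DMSO in E+F- cells, and 26.6 ± 7.6 TPM and 17.1 ± 7.7 TPM in unsorted cells (difference of effects -2.12 ± 0.29, adjusted p = 0.0242). Both differences of effects rest on the block: without it 4 genes passed against E+F+ cells and none against unsorted cells, where 324 genes had an unadjusted p under 0.05 in edgeR and DESeq2 with the block called 138. The differences also share the E+F- libraries. Without Set 1, Set 2 and Set 3 in turn, 24, 33 and 48 genes passed against E+F+ cells, of which 21 each time were among the 113, and 13, 2 and 14 passed against unsorted cells, of which 7, 1 and 4 were among the 21.

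**Figure D5:**
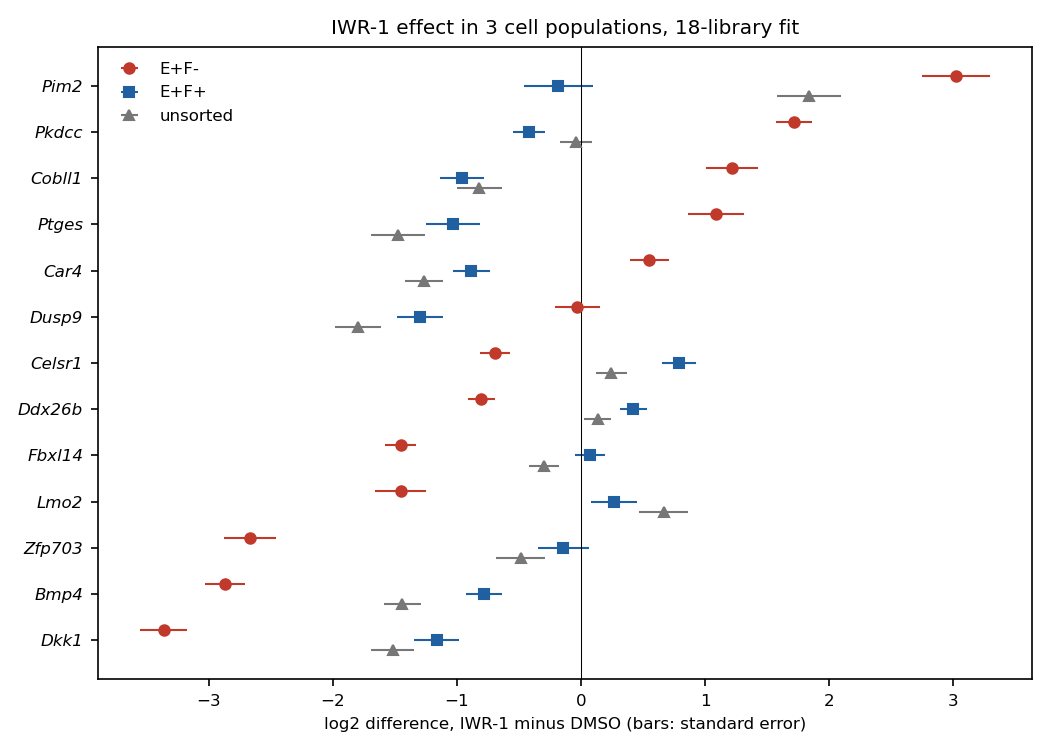
Log2 difference between IWR-1 and DMSO, with its standard error, in E+F- cells (red circles), E+F+ cells (blue squares) and unsorted cells (grey triangles), for the 13 genes among the 8 with the smallest adjusted p for either difference of effects. For Dkk1, Bmp4 and Zfp703 the E+F- point is the one furthest left, and Cobll1, Ptges and Car4 lie right of 0 in E+F- cells and left of 0 in the other 2 populations.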

How the data were processed

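RNA from 18 libraries was sequenced as single 51-base reads with a TruSeq kit that does not mark strand, so overlapping and antisense genes cannot be told apart. According to the methods and processing notes, the authors called bases with CASAVA 1.8.2, aligned reads with Bowtie 0.12.9 to RefSeq transcripts (mm10) and estimated levels with RSEM 1.2.3. They deposited expected counts (20321 rows) and TPM values (20308 rows) for each library. TPM served for levels. After rounding, the expected counts were fitted in edgeR 4.0.16 (R 4.3.3) with TMM scaling (factors 0.941 to 1.07 in the E+F- libraries), filterByExpr and the quasi-likelihood test, on Set plus treatment, with Benjamini-Hochberg adjustment at 0.05. The 13 rows with Ensembl identifiers held 2.43% to 3.32% of the counts. The authors' own comparison (EBSeq) was not used.

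The Set number of the labels paired the libraries: deviations from the group means correlated within Sets 1, 2 and 3 at 0.32, 0.47 and 0.75. Between Sets, IWR-1 Set 1 also correlated with DMSO Set 2 at 0.30, and IWR-1 Set 2 with DMSO Set 1 at 0.41, so that only Set 3 was told apart by this measure. Libraries of a group differed by far more than sampling noise. Differences of effects were fitted on all 18 libraries with a block for each Set of a population. DESeq2 1.42.0 and limma 3.58.1 (voom, or log2 of TPM plus 1 or 0.1) were alternatives, 14 in all, and the fits were tested on simulated data, where the share of false calls among genes past the adjusted p of 0.05 was above that level. The members and the 37 gene lists were chosen with earlier results of these data known. Genes were named if the study's text ties them to the experiment, if they were among the 12 higher or lower with the largest difference (at least 5 CPM, no overlap), if they had 1 of the 5 smallest adjusted p in a list, if they belong to the Wnt feedback, destruction complex or cardiac lists, or if they were among the 8 with the smallest adjusted p for a difference of effects; others are said to be named after their values were seen. Sequences came from RefSeq (GRCm38.p6). A called gene is not reported here, although the counts include it.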

Additional observations from a re-analysis of the deposited data

Results flagged for a closer look

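Of the genes with the smallest adjusted p for a difference between the IWR-1 effect in E+F- cells and that in E+F+ cells, 8 were singled out because the test of the difference itself passed (edgeR, fit of all 18 libraries). Values are differences of log2 effects, E+F- minus E+F+, with SE. The difference was 2.13 ± 0.19 for Pkdcc (adjusted p = 0.00308), -2.09 ± 0.21 for Bmp4 (0.005), -2.53 ± 0.29 for Zfp703, -1.53 ± 0.18 for Fbxl14, -2.20 ± 0.26 for Dkk1 and 3.21 ± 0.38 for the kinase gene Pim2 (0.00759 each). It was -1.23 ± 0.15 for Ddx26b and -1.49 ± 0.19 for Celsr1, a cadherin of planar cell polarity (0.00838 each). Pim2 had an effect of 3.02 in E+F- cells and -0.18 in E+F+ cells, and Celsr1 of -0.69 and 0.79.

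Against unsorted cells, the difference was 1.75 ± 0.20 for Pkdcc, 1.82 ± 0.22 for the carbonic anhydrase Car4 and 2.56 ± 0.31 for Ptges, which makes prostaglandin E (adjusted p = 0.0201 each). It was -2.18 ± 0.28 for Zfp703, -1.85 ± 0.25 for Dkk1, 2.04 ± 0.28 for Cobll1 and -2.12 ± 0.29 for Lmo2 (0.0242 each), and 1.76 ± 0.26 for the MAP kinase phosphatase Dusp9 (0.0391). Dusp9 showed an effect of -0.03 in E+F- cells and -1.80 in unsorted cells, and averaged 61.8 ± 6.0 TPM with IWR-1 and 68.3 ± 15.6 TPM with DMSO in E+F- cells, against 60.1 ± 19.8 TPM and 202 ± 41 TPM in unsorted cells (SD, n = 3 each).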

How the results depend on the processing

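The count of 259 called genes (117 higher, 142 lower) became 31 (3 and 28) without the replicate block, 896 (479 and 417) in the fit of 18 libraries with the block, 72 (18 and 54) in that fit without it, 592 (300 and 292) with DESeq2, 406 (187 and 219) without a low-count filter and 154 (60 and 94) with the stricter filter of 5 CPM. On log2(TPM + 1) and log2(TPM + 0.1), 51 and 62 genes were higher and 156 and 165 lower, so that 24.6% and 27.3% of calls were higher, against 45.2%. Leaving out a Set gave 116 to 553 calls, 41 to 315 higher and 75 to 238 lower. The 11 lower Wnt feedback genes became 4 without the block and 7 in the fit of 18 libraries without it. The 113 differences from E+F+ cells became 4 without the block, 333 with DESeq2 and 24 to 48 without a Set, and the 21 from unsorted cells became 0, 138 and 2 to 14. All 82 called genes of the text kept their direction under each alternative that tested them (13 or 14), and 18 were called in each of these (22 with the fit on 6 libraries without the block set aside); 20 were called without the block and 45 whichever Set was left out. The sign turned only in uncalled genes. Without the block Mesp1 had a log2 difference of 0.0055, and in the fit of 18 libraries without it 0.0071. Leaving out a Set gave -0.92 (Set 2) to 0.16 (Set 3) for Sp5, -0.022 (Set 1) to 0.18 (Set 3) for Tnks, -0.60 (Set 2) to 0.36 (Set 3) for Mesp1, -0.10 (Set 1) to 0.41 (Set 2) for Eng, and -0.41 (Set 2) to 0.036 (Set 3) for Id1, with 0.016 without Set 1. The cause was not tested.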

Other observations

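Alpha-defensins, the antimicrobial peptides of intestinal Paneth cells, were among the lower genes. Of 27 alpha-defensin genes in the table, 5 passed the filter on low counts and all 5 were called lower with IWR-1, against 1.08% of all tested genes. A gene could pass that filter through its DMSO libraries alone, and the copies share reads, so these shares are not a like comparison. Gm15284, which RefSeq names Defa30, stood at 15.4, 14.0 and 16.2 TPM in IWR-1 Sets 1 to 3 and at 334, 135 and 179 TPM in DMSO (log2 difference -3.65, edgeR adjusted p = 0.00426). Gm14851 (-4.27, 0.00414), Gm21002 (-3.85, 0.0142; -3.19 without Set 1), Defa22 (-3.94, 0.0105) and Gm10104 (-4.20, 0.0411) were the others, the last pair named after their values were seen, and Gm10104 was not called without Set 1 (adjusted p = 0.149) and was at -5.43 without Set 2. These genes are near-identical copies that RSEM shares reads among, so their separate values are uncertain and they do not count as separate observations.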
